A study of Homo sapiens with 8 samples.

Results

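The dual-specificity phosphatases DUSP1, DUSP4, DUSP5, DUSP6 and DUSP10 and the Sprouty proteins SPRY1, SPRY2 and SPRY4 restrain mitogen-activated protein kinase (MAPK) signalling. Their 8 genes were taken by symbol from the platform's probe annotation, which gave 13 of the 22277 probe sets on the array. Of these 13, 10 exceeded a log2 value of 4 in at least 2 of the 8 arrays and were tested, as were 12702 probe sets in all. The 3 left out were both probe sets of DUSP10 and 1 of the 2 for DUSP1. The tested probe sets belong to 7 of the 8 genes.

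Affymetrix human arrays with probe sets near the 3′ ends of transcripts profiled a pair of human cancer cell lines in which a short hairpin RNA (shRNA) was aimed at GATA6, a zinc-finger transcription factor of the gut endoderm. There were 4 groups of 2 arrays, which were HUG1N cells with the GATA6 shRNA, HUG1N control cells, Caco-2 cells with the GATA6 shRNA and Caco-2 control cells. HUG1N, written HuG-1 in some labels, is a gastric cancer line, and Caco-2 is a colorectal adenocarcinoma line with enterocyte features. The labels describe viral delivery and puromycin selection without saying what the controls carried, how many hairpins were used, how long selection ran or whether the 2 arrays of a group were separate cultures, so every p-value here measures the spread between arrays, which may be technical.

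The MAPK cascades pass a signal from a receptor through RAS and a chain of kinases to ERK, p38 or JNK, which are switched on by phosphate on a threonine and a nearby tyrosine. Dual-specificity phosphatases remove both phosphates. DUSP6 acts on ERK in the cytoplasm, DUSP5 on ERK in the nucleus, DUSP1 and DUSP4 are nuclear and act on several MAP kinases, and DUSP10 prefers p38 and JNK. Sprouty proteins act further up, between receptor tyrosine kinases and RAF. Several of these genes are themselves switched on by ERK activity, which makes them negative feedback regulators, and in gut epithelium ERK signalling is known for its part in the proliferation of crypt cells.

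Values are the deposited log2 expression values, so a difference of 1 is a 2-fold change. A probe set was called when its adjusted p was under 0.05 in limma, a linear model that shares information on the spread across all 12702 tested probe sets. Levels are compared between groups for 1 probe set at a time and never between probe sets. All values came from bulk cultures, in which a change in RNA per cell and a change in the mix of cells cannot be told apart.

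GATA6 itself, on its only probe set, read 12.26 and 12.22 in HUG1N shRNA arrays against 12.54 and 12.45 in HUG1N control arrays, and 12.23 and 12.02 in Caco-2 shRNA arrays against 12.63 and 12.45 in Caco-2 control arrays. The change passed the test in Caco-2 (log2 difference -0.42, SE 0.11, limma adjusted p = 0.0256) and missed it in HUG1N (-0.25, SE 0.11, limma adjusted p = 0.0952). Pairs of arrays in a group correlated at 0.995 to 0.997 across the tested probe sets. The 5 epithelial markers exceeded log2 4 in every group. Of 6 intestinal markers, 3 exceeded it in HUG1N shRNA cells (CDH17, CDX1 and VIL1), 4 in HUG1N control cells (FABP1 as well) and 6 in both Caco-2 groups. CDX1 was higher in HUG1N control cells (7.38) than in Caco-2 control cells (4.53). It stood at 4.53 with an SD of 0 in both Caco-2 groups, a flat value that may not be signal. Of 7 gastric markers, 5 exceeded it in both HUG1N groups, with GKN1 and SOX2 below, and TFF1 and TFF2 in both Caco-2 groups. Of 8 fibroblast markers, COL1A1 exceeded log2 4 in every group (means of 4.16 to 4.60) and lumican (LUM) did so in Caco-2 shRNA cells, at 7.53 against 3.43 in Caco-2 control cells; the summed list ran from 24.4 to 25.0 in Caco-2 shRNA arrays and from 20.5 to 20.6 in Caco-2 control arrays. Of 6 immune markers with a probe set, only CD14 exceeded log2 4, in Caco-2 control cells at 4.61. The gap between the 3′ and 5′ probe sets of ACTB, which widens as RNA is shortened, was 3.73 ± 0.06 in HUG1N shRNA and 2.51 ± 0.23 in HUG1N control arrays, and 1.55 ± 0.13 in Caco-2 shRNA and 1.92 ± 0.02 in Caco-2 control arrays (SD, n = 2 each). Spiked bacterial controls averaged 10.90 ± 0.05 in HUG1N shRNA and 12.75 ± 0.18 in HUG1N control arrays, and 12.40 ± 0.14 in Caco-2 shRNA and 12.54 ± 0.12 in Caco-2 control arrays (SD, n = 2 each). The part of these measures in the changes below was not tested.

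Promoter windows from RefSeq (GRCh38.p14) ran from 250 bases before the start site to 50 after it. Those examined, in 10 entries, came from 6 of the 8 genes. No window of DUSP4 or DUSP5 was examined, which does not mean that RefSeq holds none for them. The motif counts below therefore leave out both genes. The 4 printed here stand for some of the patterns of response described below. None is from DUSP5, which changed in opposite directions in the lines. DUSP1 was higher with the shRNA in Caco-2 and not called in HUG1N, DUSP6 and SPRY1 were higher in both lines, and SPRY4 was lower in HUG1N and not called in Caco-2. Each is written 5′ to 3′ on the strand of its gene, with capitals for matches to the motifs searched on both strands: the cyclic AMP response element TGACGTCA, the AP-1 site TGANTCA, the ETS core CCGGAA and the GATA core GATAA. Each printed window held at most 1 match, so no matches overlapped.
DUSP1, chr5:172771146-172771445, minus strand: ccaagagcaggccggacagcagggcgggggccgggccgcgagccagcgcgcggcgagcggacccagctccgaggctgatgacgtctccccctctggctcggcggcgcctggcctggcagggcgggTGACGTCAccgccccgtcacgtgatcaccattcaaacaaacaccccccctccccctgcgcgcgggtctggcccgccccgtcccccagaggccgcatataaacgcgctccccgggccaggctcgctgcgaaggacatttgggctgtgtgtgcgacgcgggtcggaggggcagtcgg
DUSP6, chr12:89352452-89352751, minus strand: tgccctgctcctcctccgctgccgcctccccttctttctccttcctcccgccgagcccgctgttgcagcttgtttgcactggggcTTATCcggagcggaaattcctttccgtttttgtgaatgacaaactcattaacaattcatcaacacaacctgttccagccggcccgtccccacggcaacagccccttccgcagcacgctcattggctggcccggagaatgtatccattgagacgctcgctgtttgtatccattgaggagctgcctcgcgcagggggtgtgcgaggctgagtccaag
SPRY1, chr4:123398136-123398435, plus strand, the later of 2 starts: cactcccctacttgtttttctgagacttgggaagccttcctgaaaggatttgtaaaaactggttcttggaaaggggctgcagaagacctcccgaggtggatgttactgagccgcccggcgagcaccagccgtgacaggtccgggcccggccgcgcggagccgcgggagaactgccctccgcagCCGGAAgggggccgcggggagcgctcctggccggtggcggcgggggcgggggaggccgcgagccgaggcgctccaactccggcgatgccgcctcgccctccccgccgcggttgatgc
SPRY4, chr5:142324198-142324497, minus strand: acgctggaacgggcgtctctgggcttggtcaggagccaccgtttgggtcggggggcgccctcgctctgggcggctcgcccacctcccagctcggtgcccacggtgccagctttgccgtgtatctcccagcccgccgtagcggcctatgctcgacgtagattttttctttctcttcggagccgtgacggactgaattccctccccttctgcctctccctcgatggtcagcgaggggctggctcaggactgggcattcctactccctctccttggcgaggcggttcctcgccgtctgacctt

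The DUSP1 window holds the full cyclic AMP response element, beginning 125 bases before the start, a motif present in 1.85% of 35116 RefSeq promoter windows of this length. The DUSP6 window holds a GATA core on the opposite strand, beginning 165 bases before the start, as do 22.7% of all windows. The SPRY1 window holds an ETS core, beginning 67 bases before the start, as do 17.2% of all windows. The window of the earlier SPRY1 start, not printed, held no match to any of these motifs. The SPRY4 window holds none of these letters. Over the 10 entries, 2 held the GATA core, the other in DUSP10, and 2 held the ETS core, the other in SPRY2. The AP-1 site, which 7.71% of all windows have, was in 0 of these entries. A match is a description of the letters and says nothing of binding in these cells.

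In HUG1N, 8 probe sets were called, with 4 higher and 4 lower with the shRNA and 2 not called. SPRY4, SPRY2, DUSP5 and DUSP4 fell, while SPRY1 rose, as did DUSP6 on 3 probe sets that are not independent. In Caco-2 all called changes ran upward: 7 of the 10 probe sets were called higher and 0 lower, with DUSP5 changed most, then SPRY1, DUSP1 and DUSP6. Of these 7, 1 probe set of DUSP4 had both groups under log2 4. Over all tested probe sets 46.8% were called in HUG1N, 23.5% higher and 23.3% lower, and 35.3% in Caco-2, 17.9% higher and 17.5% lower. The median log2 difference over the 10 probe sets was -0.22 in HUG1N and 0.88 in Caco-2, against a median of 0 over all tested probe sets in each line. The genes were chosen with earlier results of these data known, so this contrast is descriptive and not a test. By gene, on the brightest probe set, 2 of 7 were higher and 4 lower in HUG1N (median -0.63). In Caco-2 5 were higher, DUSP4 under log2 4 among them, and 0 lower (median 0.84). Over all tested genes 47.6% were called in HUG1N and 37.2% in Caco-2. All called probe sets in Caco-2 numbered 4489. In each line fewer were called when any 1 of its own arrays was left out, which leaves 1 array in a group. The changes of the 10 probe sets stood beside a wider ACTB gap with the shRNA in HUG1N (3.73 against 2.51 in control arrays). In Caco-2 the gap was narrower with the shRNA (1.55 against 1.92 in control arrays). The part of the gap in these changes was not tested. Lineage markers also moved with the shRNA. Of 5 epithelial markers, 4 were called higher in HUG1N and 3 in Caco-2, and 0 lower in either line. Their summed log2 values ran from 71.7 to 71.8 in HUG1N shRNA and from 68.9 to 69.2 in HUG1N control arrays. In Caco-2 they ran from 74.2 to 74.3 in shRNA and from 70.0 to 70.3 in control arrays. In HUG1N the summed log2 values of the 7 gastric markers ran from 60.2 to 60.5 in shRNA arrays and from 64.5 to 65.3 in control arrays, and those of the 6 intestinal markers from 31.4 to 32.7 in shRNA arrays and from 33.9 to 34.9 in control arrays. Members of the gastric and of the intestinal list went both ways there. Of 5 tested gastric markers, 1 was called higher and 3 lower, and of 6 intestinal markers, 1 higher and 2 lower. CLDN18, a gastric tight junction gene, fell by 2.71 and MUC5AC rose by 0.57 (limma adjusted p = 7.38e-05 and 0.0128). VIL1, which encodes the microvillus protein villin, rose by 1.15 and CDX1 fell by 1.59 (limma adjusted p = 7.39e-04 and 0.00517). FABP1, the other intestinal marker called lower, averaged 2.34 in HUG1N shRNA and 4.29 in HUG1N control cells. In Caco-2 the gastric sum was 26.5 on both shRNA arrays and 33.6 to 34.2 on control arrays, and the intestinal sum was 54.8 to 55.6 on shRNA arrays and 57.5 to 57.9 on control arrays. The trefoil peptide gene TFF1 averaged 8.05 in Caco-2 shRNA and 11.24 in Caco-2 control cells, a log2 difference of -3.20 (SE 0.11, limma adjusted p = 1.78e-05). TFF2 averaged 6.23 in Caco-2 shRNA and 10.45 in Caco-2 control cells, a log2 difference of -4.22 (SE 0.20, limma adjusted p = 5.08e-05). The part of these markers in the DUSP and Sprouty changes was not tested.

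**Figure D1:**
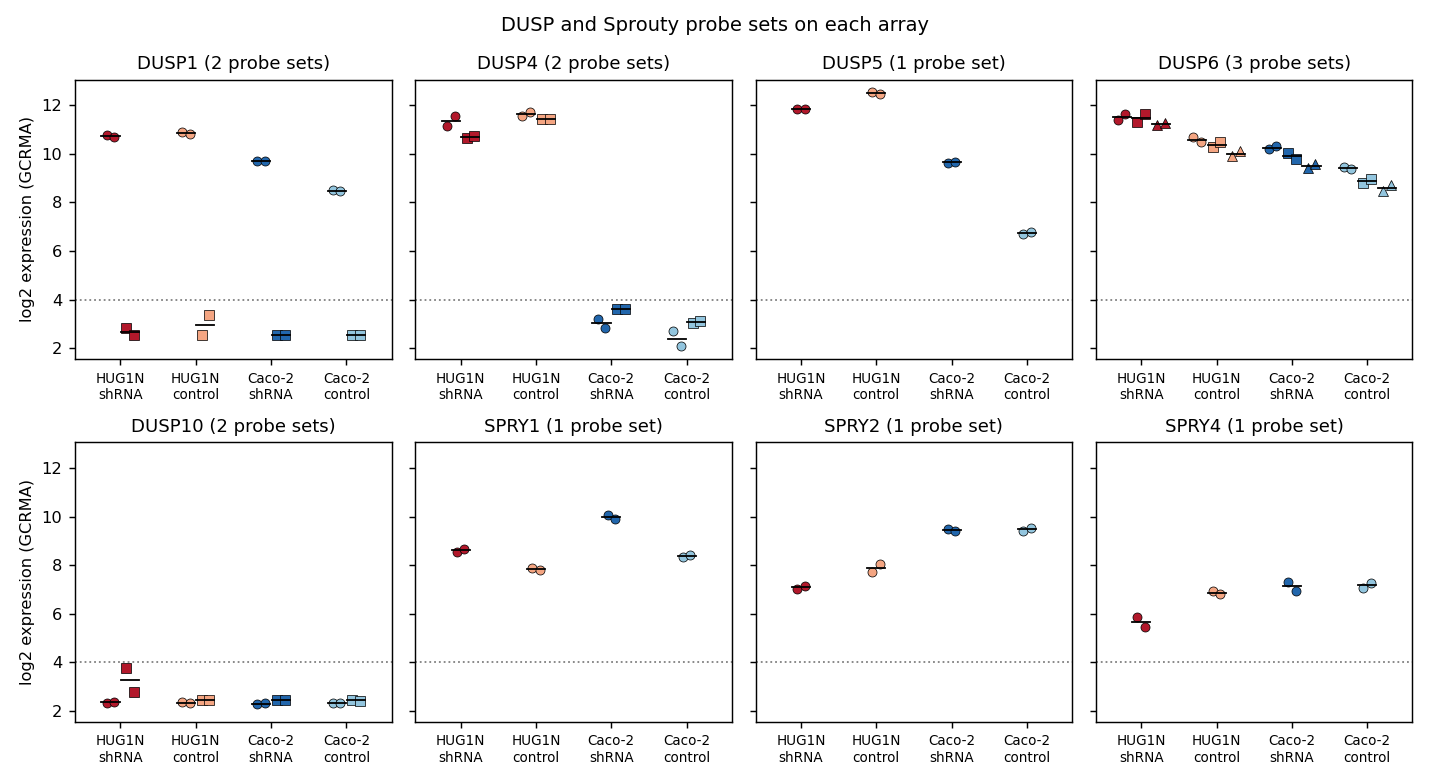
Log2 expression (GCRMA) of all 13 probe sets of the 8 genes on each of the 8 arrays. Each point is 1 array, the short line is the mean of the 2 arrays, circles, squares and triangles mark the probe sets of a gene in order of their identifiers, and the dotted line is log2 4. DUSP4 lies between 10.65 and 11.74 in HUG1N and under 4 in Caco-2, DUSP5 has its lowest values in Caco-2 control arrays, and DUSP10 stays under 4 on all arrays.

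DUSP5, the nuclear ERK phosphatase, had the largest response to the shRNA among these genes, and it ran in opposite directions in the lines. It read 11.86 and 11.85 in HUG1N shRNA arrays against 12.53 and 12.45 in HUG1N control arrays. In Caco-2 it read 9.63 and 9.67 in shRNA arrays against 6.72 and 6.78 in control arrays. The groups did not overlap in either line, and Caco-2 control cells stood lowest of all 4 groups. The fall in HUG1N was 0.63 on the log2 scale, 1.55-fold (SE 0.07, limma adjusted p = 9.11e-04), and the rise in Caco-2 was 2.89, 7.43-fold (SE 0.07, limma adjusted p = 3.75e-06). The difference between the effects, HUG1N minus Caco-2, was -3.52 (95% interval -3.76 to -3.29, limma adjusted p = 1.46e-05).

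The gap in DUSP5 between the lines was correspondingly narrower among shRNA cells. HUG1N control cells were 53.2-fold above Caco-2 control cells (log2 difference 5.73, SE 0.07, limma adjusted p = 2.03e-08). HUG1N shRNA cells were 4.63-fold above Caco-2 shRNA cells (2.21, SE 0.07, limma adjusted p = 1.04e-06). The order of the levels was HUG1N control, HUG1N shRNA, Caco-2 shRNA and Caco-2 control from high to low, with no overlap between neighbours.

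DUSP6, the cytoplasmic ERK phosphatase that is widely used as a readout of ERK activity, rose with the shRNA in both lines on all 3 of its probe sets, which are annotated to the same transcript sequence and so are not independent. On the brightest, 208891_at, it read 11.38 and 11.64 in HUG1N shRNA arrays against 10.69 and 10.47 in HUG1N control arrays. The Caco-2 shRNA arrays read 10.19 and 10.31 against 9.45 and 9.36 in Caco-2 control arrays. All 4 groups were apart, with HUG1N shRNA highest and Caco-2 control lowest, although the lowest HUG1N control array, at 10.47, lay only just above the highest Caco-2 shRNA array, at 10.31.

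The size of the DUSP6 rise was much alike on the 3 probe sets. In HUG1N the log2 differences were 0.93 for 208891_at (SE 0.12), 1.11 for 208892_s_at (SE 0.15) and 1.22 for 208893_s_at (SE 0.12), with limma adjusted p of 0.00182, 0.00216 and 6.90e-04. In Caco-2 they were 0.84 (SE 0.12), 1.03 (SE 0.15) and 0.91 (SE 0.12), with limma adjusted p of 0.00352, 0.00379 and 0.00244. The effects in the lines were not shown to differ: HUG1N minus Caco-2 was 0.09 (95% interval -0.33 to 0.51), 0.08 (-0.45 to 0.61) and 0.31 (-0.10 to 0.72), with limma adjusted p of 0.705, 0.798 and 0.185. The intervals leave room for differences of up to 0.72. Between the lines, HUG1N stood above Caco-2 by 1.18 (SE 0.12) among control cells and by 1.27 (SE 0.12) among shRNA cells on 208891_at (limma adjusted p = 1.69e-04 and 1.34e-04).

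DUSP1, an immediate early phosphatase induced by stress and growth factors, responded in Caco-2. On 201041_s_at it read 10.79 and 10.68 in HUG1N shRNA arrays against 10.90 and 10.82 in HUG1N control arrays, and 9.71 and 9.69 in Caco-2 shRNA arrays against 8.51 and 8.46 in Caco-2 control arrays. The HUG1N groups lay close together without overlapping, and the Caco-2 groups were well apart. The Caco-2 rise was 1.21, 2.31-fold (SE 0.07, limma adjusted p = 1.33e-04), while the HUG1N difference of -0.12 was not called (95% interval -0.30 to 0.06, limma adjusted p = 0.224). The effects differed by -1.33, HUG1N minus Caco-2 (SE 0.10, limma adjusted p = 4.18e-04). HUG1N exceeded Caco-2 by 2.37 (SE 0.07) among control cells and by 1.04 (SE 0.07) among shRNA cells (limma adjusted p = 8.80e-07 and 3.20e-05). The order was therefore HUG1N control, HUG1N shRNA, Caco-2 shRNA and Caco-2 control from high to low, with only the HUG1N pair not called different. The second DUSP1 probe set, 201044_x_at, lay between 2.53 and 3.35 on all 8 arrays and gives no level for comparison.

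DUSP4, a nuclear phosphatase closely related to DUSP1, exceeded log2 4 on the HUG1N arrays only. On 204015_s_at it read 10.65 and 10.75 in HUG1N shRNA arrays and 11.43 on both HUG1N control arrays. The Caco-2 arrays read 3.63 on both shRNA arrays against 3.03 and 3.13 on the control arrays. Every Caco-2 value lay under log2 4, on this probe set and on 204014_at, where the range in Caco-2 was 2.08 to 3.19. Set against log2 4, HUG1N control cells were at least 172-fold higher than Caco-2 control cells on 204015_s_at and at least 201-fold on 204014_at. HUG1N shRNA cells were at least 104-fold and at least 162-fold higher than Caco-2 shRNA cells. These bounds make no allowance for the spread among the brighter arrays. Limma adjusted p for the 4 comparisons ran from 1.06e-08 to 9.77e-07. Both probe sets passed the filter only through their HUG1N arrays, so these calls are not read as a result.

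Within HUG1N, DUSP4 fell by 0.73 on 204015_s_at, 1.66-fold (SE 0.07, limma adjusted p = 7.17e-04). On 204014_at, with 11.13 and 11.54 in HUG1N shRNA arrays against 11.56 and 11.74 in HUG1N control arrays, the difference was -0.31 (SE 0.25, 95% interval -0.93 to 0.30, limma adjusted p = 0.351), so the fall was called on 1 of the 2 probe sets. The Caco-2 difference on 204015_s_at passed the test (limma adjusted p = 0.00243), but both groups lay under log2 4, where a difference has no fixed size, and it was 0 once values under 4 were set to 4. No fold change is given for it.

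DUSP10, a phosphatase of p38 and JNK, stayed under log2 4 on all 8 arrays. Its probe set 215501_s_at ran from 2.28 to 2.38. The other, 221563_at, read 3.75 and 2.79 in HUG1N shRNA arrays and 2.41 to 2.47 on the other arrays. No test was run on these values, and they give no order of the groups.

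SPRY1, which blocks signals from growth factor receptors, rose in both lines and more in Caco-2. It read 8.56 and 8.66 in HUG1N shRNA arrays against 7.90 and 7.81 in HUG1N control arrays, and 10.06 and 9.91 in Caco-2 shRNA arrays against 8.32 and 8.43 in Caco-2 control arrays. The groups did not overlap in either line, and Caco-2 shRNA cells stood highest. The rise was 0.76 in HUG1N, 1.69-fold (SE 0.09, limma adjusted p = 0.00129), and 1.61 in Caco-2, 3.05-fold (SE 0.09, limma adjusted p = 9.62e-05). HUG1N minus Caco-2 was -0.85 (95% interval -1.16 to -0.54, limma adjusted p = 0.00373). SPRY1 was lower in HUG1N than in Caco-2, with log2 differences of -0.52 among control cells and -1.37 among shRNA cells (SE 0.09 each, limma adjusted p = 0.00199 and 2.39e-05). HUG1N shRNA and Caco-2 control cells were neighbours in the order of levels, whose values did not overlap and were not tested against each other.

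SPRY2, the Sprouty protein that also binds the ubiquitin ligase CBL, fell in HUG1N. It read 7.03 and 7.15 in HUG1N shRNA arrays against 7.72 and 8.03 in HUG1N control arrays, and 9.51 and 9.39 in Caco-2 shRNA arrays against 9.42 and 9.53 in Caco-2 control arrays. The Caco-2 groups overlapped and stood above both HUG1N groups. The HUG1N fall was 0.79 on the log2 scale, 1.72-fold (SE 0.12, limma adjusted p = 0.00330), and the Caco-2 difference was -0.03 (95% interval -0.32 to 0.27, limma adjusted p = 0.913). HUG1N lay 3.03-fold below Caco-2 among control cells and 5.13-fold below it among shRNA cells (limma adjusted p = 3.81e-05 and 8.47e-06).

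SPRY4, which restrains signalling to RAS and RAF, had the largest HUG1N fall of these genes. It read 5.88 and 5.45 in HUG1N shRNA arrays against 6.93 and 6.81 in HUG1N control arrays, and 7.31 and 6.94 in Caco-2 shRNA arrays against 7.07 and 7.26 in Caco-2 control arrays. HUG1N shRNA cells stood apart below the other 3 groups, which lay within 6.81 to 7.31. The HUG1N fall was 1.20 on the log2 scale, 2.30-fold (SE 0.19, limma adjusted p = 0.00323), and the Caco-2 difference was -0.04 (95% interval -0.49 to 0.41, limma adjusted p = 0.915). Among control cells HUG1N minus Caco-2 was -0.30 (95% interval -0.75 to 0.16, limma adjusted p = 0.188), and among shRNA cells it was -1.46 (SE 0.19, limma adjusted p = 4.78e-04).

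For SPRY2 and SPRY4 the test of the difference between the lines' effects stood near its threshold. HUG1N minus Caco-2 was -0.76 for SPRY2 (95% interval -1.18 to -0.34, limma adjusted p = 0.0151) and -1.17 for SPRY4 (95% interval -1.80 to -0.53, limma adjusted p = 0.0148). Without the filter on low values the limma adjusted p was 0.0523 for SPRY2 and 0.0643 for SPRY4, and without Caco-2 control replicate 1 it was 0.0552 and 0.0542. Without Caco-2 shRNA replicate 1 it was 0.0511 for SPRY2. Over 16 alternatives it ran from 0.00937 to 0.0552 for SPRY2 and from 0.0107 to 0.0643 for SPRY4.

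**Figure D2:**
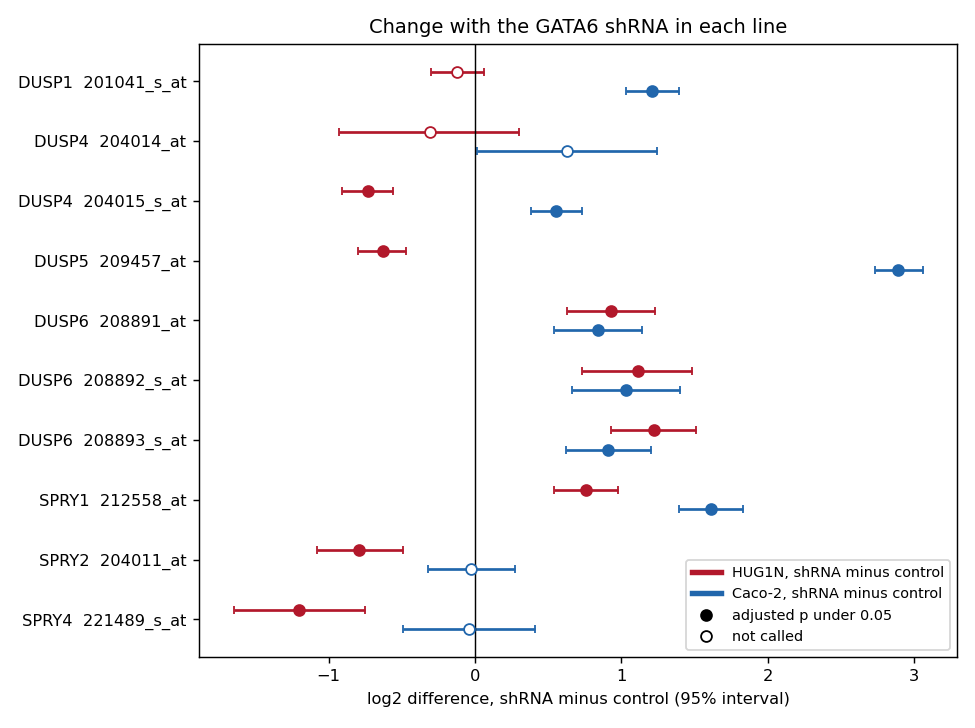
Log2 difference, shRNA minus control, for the 10 tested probe sets in HUG1N (red) and Caco-2 (blue), with 95% intervals from limma. Filled points have an adjusted p under 0.05 and open points do not. DUSP6 lies to the right of 0 in both lines, DUSP5 at -0.63 in HUG1N and 2.89 in Caco-2, and SPRY4 at -1.20 in HUG1N and -0.04 in Caco-2.

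The responses of the lines were compared directly for all 10 probe sets. The change with the shRNA was lower in HUG1N than in Caco-2 for 6 probe sets, 1 each of DUSP1, DUSP4, DUSP5, SPRY1, SPRY2 and SPRY4, and higher for 0. The DUSP4 probe set, 204015_s_at, passed the filter only through its HUG1N arrays, and all its Caco-2 values lie under log2 4, so the size of its difference is not fixed; with values under 4 set to 4 it was -0.73. Over all tested probe sets 42.6% were called for such a difference, 21.0% higher and 21.6% lower in HUG1N. The 4 not called were the 3 of DUSP6 and 204014_at of DUSP4. Each comparison within a line used its own control arrays, while the difference uses all 4 groups.

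Levels were also compared between the lines themselves. Among control cells, all 7 tested probe sets of DUSP1, DUSP4, DUSP5 and DUSP6 were called higher in HUG1N than in Caco-2, SPRY1 and SPRY2 were called lower, and SPRY4 was not called. Among shRNA cells the same 7 were higher and all 3 Sprouty probe sets were lower. Both DUSP4 probe sets among the 7 passed the filter only through their HUG1N arrays, so their calls are not read as a result. The background is high: 76.3% of all tested probe sets were called between the control cells, 36.5% higher and 39.7% lower in HUG1N, and 74.9% between the shRNA cells, 35.9% higher and 39.0% lower. DUSP10 was not tested. Other dual-specificity phosphatases and relatives went both ways between the control cells: DUSP9 and DUSP2 were lower in HUG1N, at log2 differences of -1.47 and -0.62, and STYXL1 was higher, at 2.56 (limma adjusted p = 2.65e-04, 0.00335 and 1.71e-06). Of 5 tested atypical genes, 1 was higher and 4 were lower.

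Related phosphatases gave other values. DUSP7 and DUSP9, both cytoplasmic and selective for ERK like DUSP6, had negative differences in both lines where those of DUSP6 were positive. DUSP9 fell by 1.29 in HUG1N, at 4.62 in shRNA against 5.91 in control cells, and by 1.69 in Caco-2, at 5.69 in shRNA against 7.38 in control cells (log2, SE 0.17 each, limma adjusted p = 0.00176 and 8.29e-04). DUSP7 fell by 1.48 in Caco-2 (SE 0.24, limma adjusted p = 0.00546), and its HUG1N difference of -0.63 was not called (SE 0.24, limma adjusted p = 0.0769). DUSP2, a nuclear ERK phosphatase, was called in neither line, with differences of -0.09 in HUG1N and -0.25 in Caco-2 (limma adjusted p = 0.598 and 0.155). STYXL1, a catalytically inactive relative, rose in Caco-2 by 0.96 (SE 0.09, limma adjusted p = 7.95e-04) and was not called in HUG1N (-0.21, SE 0.09, limma adjusted p = 0.111).

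Counts over that list of 6 further MAP kinase phosphatases and relatives, of which 4 were tested, were 0 higher and 1 lower in HUG1N and 1 higher and 2 lower in Caco-2, with median log2 differences of -0.42 and -0.86. By gene, with the brightest probe set standing for each, 47.6% of 7696 tested genes were called in HUG1N, 24.1% higher and 23.6% lower, and 37.2% in Caco-2, 18.8% higher and 18.4% lower, and the median was 0 in each line. Of 5 tested atypical dual-specificity phosphatases, 2 were higher and 1 lower in HUG1N, and 1 was higher and 0 lower in Caco-2 (medians of 0.19 and 0.08). DUSP14 rose in both lines, by 0.89 in HUG1N and 0.71 in Caco-2 (SE 0.07 each, limma adjusted p = 3.75e-04 and 9.22e-04). DUSP22 rose in HUG1N by 0.39 and DUSP12 fell there by 0.34 (limma adjusted p = 0.0416 and 0.0154), and the differences for DUSP3 and DUSP11 were between 0.08 and 0.24 in the lines, none of them called.

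Of 18 listed further inhibitors of receptor and RAS signalling 10 had a probe set and 7 were tested. Of these 7, 1 was higher and 1 lower in HUG1N and 1 was higher and 0 lower in Caco-2 (medians of -0.02 and 0.10), beside 47.6% and 37.2% of all tested genes called. PEA15, a small protein that holds ERK in the cytoplasm, was 9.26 in HUG1N shRNA against 9.79 in HUG1N control cells, and 9.89 in Caco-2 shRNA against 9.02 in Caco-2 control cells. It fell by 0.53 in HUG1N and rose by 0.86 in Caco-2 (SE 0.12 each, limma adjusted p = 0.0114 and 0.00260). LRIG1, a transmembrane inhibitor of ERBB receptors, rose by 0.23 in HUG1N (SE 0.07, limma adjusted p = 0.0281), with a difference of -0.12 in Caco-2 (limma adjusted p = 0.200). CBLB, a ubiquitin ligase for active receptors, and PEBP1, an inhibitor of RAF, were called in neither line.

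A list of genes that ERK signalling is known to induce was set beside the DUSP and Sprouty genes. Of 14 listed genes 12 were tested, of which 2 were higher and 3 lower in HUG1N, and 6 were higher and 0 lower in Caco-2. Over all tested genes 47.6% were called in HUG1N and 37.2% in Caco-2. The 6 include ETV5, at 4.16 in Caco-2 shRNA against 3.25 in Caco-2 control cells, so near log2 4 that its change has no fixed size. The median log2 difference was -0.22 in HUG1N and 0.50 in Caco-2, against 0 over all tested genes in each line. This list too was chosen with earlier results known, so the contrast is descriptive. IER3, an early response survival gene, fell by 1.21 in HUG1N, at 14.21 in shRNA against 15.42 in control cells, and rose by 1.41 in Caco-2, at 11.10 in shRNA against 9.69 in control cells (SE 0.11 each, limma adjusted p = 4.73e-04 and 2.89e-04). EPHA2, an ephrin receptor, rose in both lines, by 0.38 in HUG1N and 1.30 in Caco-2 (SE 0.08 each, limma adjusted p = 0.0128 and 1.68e-04). The early transcription factor EGR1 and the ETS factor ETV4 fell in HUG1N by 0.88 and 0.85 (limma adjusted p = 0.00133 and 0.00396), with differences of -0.07 and -0.06 in Caco-2 that were not called. CCND1, which encodes cyclin D1, and IER2 rose in Caco-2 by 0.78 and 0.69 (SE 0.07 each, limma adjusted p = 4.93e-04 and 8.08e-04) and were not called in HUG1N. The difference between the lines was called for 7 of the 12, all lower in HUG1N, beside 43.8% of all tested genes, 21.5% higher and 22.2% lower. ETV5 is among the 7, with the same limit.

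The cascade from receptor adaptors to ERK was represented by 12 tested genes of 18 listed, of which 0 were higher and 6 lower in HUG1N, while 4 were higher and 2 lower in Caco-2 (medians of -0.33 and 0.16). Over all tested genes 47.6% were called in HUG1N and 37.2% in Caco-2. MAPK3, which encodes ERK1, fell by 0.51 in HUG1N and rose by 0.61 in Caco-2 (SE 0.08 each, limma adjusted p = 0.00295 and 0.00210). MAP2K1, which encodes the ERK kinase MEK1, fell by 0.66 in HUG1N and rose by 0.32 in Caco-2 (SE 0.08 each, limma adjusted p = 0.00157 and 0.0287). MAP2K2, which encodes MEK2, fell by 0.84 in HUG1N (SE 0.10, limma adjusted p = 0.00113). The adaptor gene SHC1 rose by 0.67 in Caco-2 (SE 0.08, limma adjusted p = 0.00141), and the RAF kinase gene ARAF fell in both lines, by 0.82 in HUG1N and 0.53 in Caco-2 (SE 0.11 each, limma adjusted p = 0.00210 and 0.0146). Of 10 tested p38 and JNK pathway genes, 1 was higher and 3 lower in HUG1N, and 0 were higher and 3 lower in Caco-2 (medians of 0.01 and -0.34), with MAP3K1, a kinase upstream of JNK, at log2 differences of -0.89 and -1.35 (SE 0.17 each, limma adjusted p = 0.00782 and 0.00227).

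The counts for receptors stand beside 47.6% of all tested genes called in HUG1N and 37.2% in Caco-2. Of 11 tested receptor tyrosine kinase genes, 3 were higher and 2 lower in HUG1N, and 4 were higher and 1 lower in Caco-2 (medians of 0.06 and 0.09). EGFR, the epidermal growth factor receptor, was 9.18 in HUG1N shRNA against 9.66 in HUG1N control cells, and 10.15 in Caco-2 shRNA against 8.73 in Caco-2 control cells. It fell by 0.48 in HUG1N and rose by 1.42 in Caco-2 (SE 0.08 each, limma adjusted p = 0.00482 and 1.16e-04). ERBB2 rose in both, by 0.49 and 0.87 (SE 0.11 each, limma adjusted p = 0.0130 and 0.00209), and MET, the hepatocyte growth factor receptor, rose in HUG1N by 0.91 (SE 0.08, limma adjusted p = 4.98e-04). In Caco-2 the fibroblast growth factor receptor FGFR3 rose by 1.44 and FGFR2 fell by 1.43 (limma adjusted p = 9.47e-05 and 1.72e-04). Of 5 tested ligand genes, 1 was called in each line (medians of 0.61 in HUG1N and 0.00 in Caco-2). In Caco-2 it was the ERBB ligand EREG, at 11.29 in shRNA against 10.22 in control cells (rise of 1.07, SE 0.31, limma adjusted p = 0.0397). In HUG1N it was FGF18, which passed the filter only through the HUG1N shRNA arrays, at a mean of 4.65 against 2.10 in the other groups, so its call is not read as a result.

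**Figure D3:**
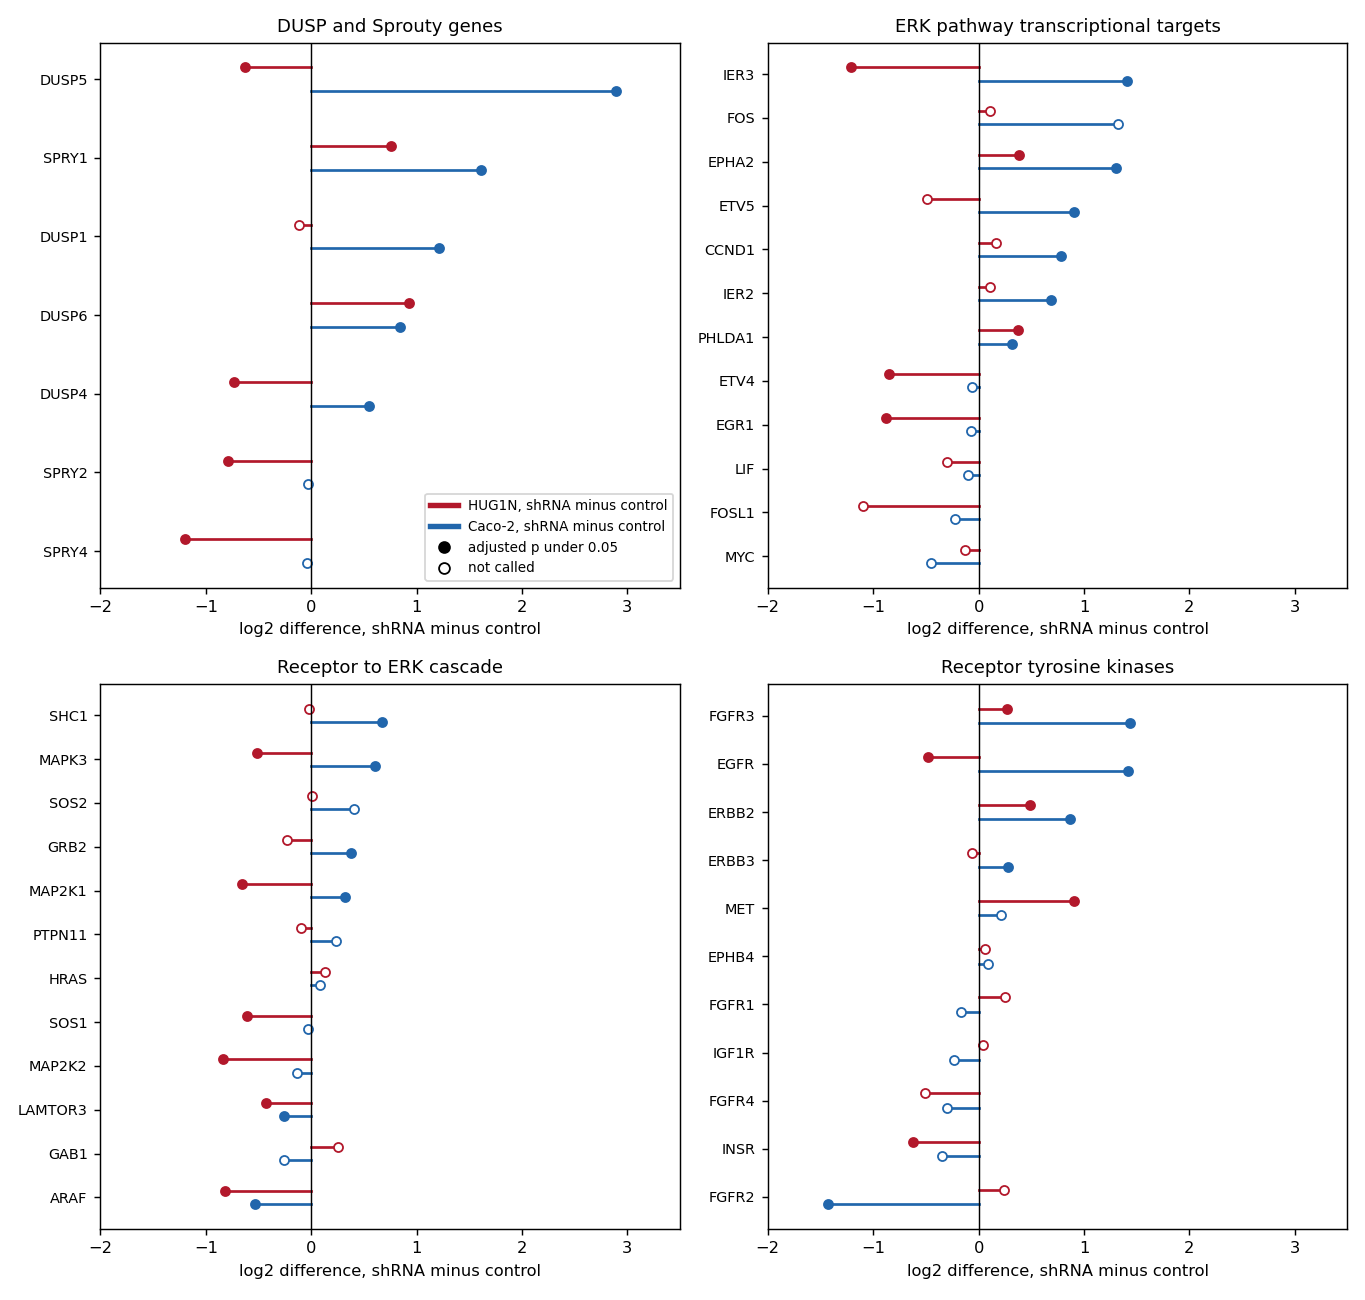
Log2 difference, shRNA minus control, in HUG1N (red) and Caco-2 (blue) for the DUSP and Sprouty genes, ERK target genes, cascade genes and receptor tyrosine kinases that were tested, each by its brightest probe set and ordered by the Caco-2 value. Filled points have an adjusted p under 0.05. IER3, MAPK3 and EGFR lie left of 0 in HUG1N and right of 0 in Caco-2, as DUSP5 does.

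Profiles over the 4 group means, each centred on its own mean, were compared between genes by their root mean square difference in log2 units. Among the 7 tested genes the closest pairs were DUSP1 with DUSP6 (0.46) and SPRY2 with SPRY4 (0.57). Outside them, the nearest of 7696 tested genes were GNE and APOL2 to DUSP1 (0.05 and 0.08), RNF39 and PLA2G4A to DUSP4 (0.19 and 0.20), and RRAS and PLAUR to DUSP5 (0.18 and 0.20). For DUSP6 they were VIPR1 and RWDD2A (0.11 each). For the Sprouty genes they were AKTIP and SQOR for SPRY1 (0.08 and 0.09), HDHD3 and FZD1 for SPRY2 (0.03 and 0.05), and RNF126 and COPE for SPRY4 (0.06 and 0.07). These are likenesses over 4 group means only. Those of DUSP4, RNF39, PLA2G4A and FZD1 include means under log2 4, so their distances and ranks have no fixed size. PLAUR, the urokinase receptor, read 10.69 in HUG1N shRNA against 10.86 in HUG1N control cells and 8.46 in Caco-2 shRNA against 5.24 in Caco-2 control cells.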

How the data were processed

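Each deposited column holds log2 expression for 1 array, which the authors computed with GCRMA (per the submitters' processing notes, with no version or setting stated in the sources used here). All 8 arrays shared the lowest value, 2.08, and their medians ran from 4.73 to 4.98. Symbols from the platform annotation were updated by Entrez ID, which matched for 19058 of 19070 probe sets with a single symbol. The 62 control probe sets were left out. Tests used limma 3.58.1 in R 4.3.3 on 4 group means over 8 arrays (4 residual and 2.11 prior degrees of freedom). Benjamini-Hochberg adjustment ran over 12702 probe sets in each of 5 comparisons. The tests were also run on simulated data with far fewer changed probe sets than were called here. That run does not show the error rate of these calls. Groups near the lowest value hardly vary and can lower the pooled SE. The number of arrays limits precision. For lists and likeness, the brightest probe set stood for a gene. Named list genes were, per list and line, among the 4 with the smallest p, and likeness named the 2 nearest genes per member. Members and lists were chosen with earlier results of these data known. Alternatives changed the filter, normalization, variance trend, samples fitted, probe sets per gene, floor and replicate block, and left out each array.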

Additional observations from a re-analysis of the deposited data

Results flagged for a closer look

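For 6 probe sets the change with the shRNA differed between HUG1N and Caco-2 in a direct test (limma, adjusted p under 0.05). Over all tested probe sets 42.6% were called in the same test. On the log2 scale, HUG1N minus Caco-2, the difference was -3.52 for DUSP5, -1.33 for DUSP1, -1.29 for DUSP4 on 204015_s_at, -1.17 for SPRY4, -0.85 for SPRY1 and -0.76 for SPRY2. The DUSP4 value uses Caco-2 values under log2 4, and it was -0.73 with those values set to 4. Without the filter on low values SPRY4 and SPRY2 lost the call (limma adjusted p = 0.0643 and 0.0523). In HUG1N the shRNA arrays also had the wider ACTB gap, 3.73 against 2.51 in control arrays, and in Caco-2 the gap was 1.55 in shRNA against 1.92 in control arrays; their part in these differences was not tested.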

How the results depend on the processing

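Of the 40 member tests called over the 5 comparisons, 37 kept their direction and their call under every alternative run, and none changed sign. The exceptions were the effect differences of SPRY2 and SPRY4 (given above) and DUSP4 in Caco-2 on 204015_s_at, which was 0 with values under 4 set to 4. Over all tested probe sets 35.3% to 76.3% were called, depending on the comparison. Whether other probe sets kept their calls was not examined, so the count is not read as a trait of these genes. It includes the DUSP4 calls between lines and the dependent probe sets of DUSP6. On 204014_at DUSP4 was called in Caco-2 with the replicate block (0.63, adjusted p = 0.0300) and without Caco-2 control replicate 1 (0.95, adjusted p = 0.0452). Leaving out 1 array at a time, some uncalled differences crossed 0. SPRY2 in Caco-2 ran from -0.09 to 0.04 and SPRY4 from -0.22 to 0.15. The effect difference of DUSP6 ran from -0.04 to 0.22 on 208891_at and from -0.09 to 0.25 on 208892_s_at. All probe sets called in Caco-2 numbered 4489, but 2798 without control replicate 1 and 2722 without control replicate 2, within a range of 2722 to 4491, while 7 to 8 member probe sets were called. With 1 probe set per gene, which tests fewer features, the calls were 3746 in HUG1N, 2982 in Caco-2, 3457 for the difference, 6032 between control cells and 5927 between shRNA cells. With the replicate number as a block, 8 member probe sets were called in HUG1N, 8 in Caco-2 and 7 for the difference; same-numbered arrays deviated together at r of -0.04 in HUG1N and 0.04 in Caco-2, so the numbers were not taken as pairs. Signal near log2 4 limits what can be said of DUSP10 and of DUSP4 in Caco-2.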
